A study of Mus musculus with 12 samples.

Results

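Accessible chromatin was examined at 49 mouse genes that encode histone-modifying enzymes and chromatin remodelers. The genes were taken by name, from a list drawn up with earlier results of these data known. Of them, 46 had at least 1 accessible region assigned to them, and together they held 73 of the 16028 regions found in the series. ATAC-seq, which marks open chromatin by where a transposase can cut, had been run on ER-Hoxa9-Lys-GFP cells of strain C57BL/6, grown in medium with SCF. In these myeloid progenitors, Hoxa9 is joined to the estrogen receptor and blocks differentiation only while estradiol (E2) is present, and GFP reports lysozyme expression. The 6 groups of 2 libraries were continuous E2, 120 h without E2, and E2 withdrawn for 24, 40, 56 or 72 h and then added back for 96, 80, 64 or 48 h. Below, the add-back groups are named by their hours of withdrawal, and add-back always shortened as withdrawal lengthened. Whether the line is a single clone, and whether the 2 libraries of a group came from separate cultures, is not given in the sources used here.

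A single peak list was deposited per group, with the position of each peak and no score or read count. The cleaned lists held 7987 to 13165 peaks, fewest at 120 h and most in continuous E2. There was therefore no replicate value and no test between groups, and depth was unknown. A missing call does not show closed chromatin. In a bulk culture, fewer cells with an open site and less opening per cell cannot be told apart. The lists hold no expression, so the labelled line was not checked against marker genes. Intervals below are 95% Wilson intervals over regions and cover counting error only.

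Histone-modifying enzymes such as these add or remove methyl and acetyl groups on histones, and remodelers use ATP to slide or evict nucleosomes. The MLL family methyltransferase Kmt2a and the methyltransferase Dot1l are known for their part in leukemias with high Hoxa9. Polycomb repressive complexes silence developmental genes, and SWI/SNF complexes open enhancers and promoters during lineage choice.

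The promoters below are shown because calls on them differ between paralogs, or, for Smarca2, because the region on it changed most in width; they were picked after the calls were seen. Each is the 250 bases before a transcript start of the RefSeq promoter table (GRCm38.p6), read on the strand of the gene. Capitals mark matches, on either strand, to the GC box core GGGCGG, to the CCAAT box, to the ETS core written CCGGAAG or to the E-box spelled CACGTG. Matches may overlap each other. Crebbp and Ep300 are paralogous acetyltransferases, Kmt2a and Kmt2c are methyltransferases of one family, Ezh1 and Ezh2 are the alternative catalytic subunits of Polycomb repressive complex 2, and Smarca2 is a SWI/SNF ATPase.
Crebbp: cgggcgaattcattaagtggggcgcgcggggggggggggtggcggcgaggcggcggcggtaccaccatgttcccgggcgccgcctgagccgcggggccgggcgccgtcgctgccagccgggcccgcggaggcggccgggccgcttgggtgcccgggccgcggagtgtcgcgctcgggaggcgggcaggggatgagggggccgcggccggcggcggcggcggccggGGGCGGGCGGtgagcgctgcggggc
Ep300: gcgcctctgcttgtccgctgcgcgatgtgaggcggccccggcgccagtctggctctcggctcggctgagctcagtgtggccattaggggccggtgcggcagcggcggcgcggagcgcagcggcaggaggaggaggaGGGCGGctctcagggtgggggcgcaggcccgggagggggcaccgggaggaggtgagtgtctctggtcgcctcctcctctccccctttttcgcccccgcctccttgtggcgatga
Kmt2a: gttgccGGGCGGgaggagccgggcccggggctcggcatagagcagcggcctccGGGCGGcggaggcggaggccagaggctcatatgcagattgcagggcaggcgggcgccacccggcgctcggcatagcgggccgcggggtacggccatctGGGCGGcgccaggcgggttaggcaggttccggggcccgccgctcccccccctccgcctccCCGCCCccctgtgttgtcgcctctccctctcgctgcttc
Kmt2c: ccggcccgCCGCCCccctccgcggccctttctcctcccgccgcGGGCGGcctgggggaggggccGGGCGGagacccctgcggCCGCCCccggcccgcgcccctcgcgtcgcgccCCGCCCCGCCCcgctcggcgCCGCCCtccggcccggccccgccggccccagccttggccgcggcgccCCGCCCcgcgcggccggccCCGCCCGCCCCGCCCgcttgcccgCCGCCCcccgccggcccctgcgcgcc
Ezh1: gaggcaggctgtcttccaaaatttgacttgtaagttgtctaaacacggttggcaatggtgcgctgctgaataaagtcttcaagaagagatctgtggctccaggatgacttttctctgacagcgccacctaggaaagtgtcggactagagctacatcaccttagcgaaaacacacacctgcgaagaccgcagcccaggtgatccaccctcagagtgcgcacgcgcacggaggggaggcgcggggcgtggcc
Ezh2: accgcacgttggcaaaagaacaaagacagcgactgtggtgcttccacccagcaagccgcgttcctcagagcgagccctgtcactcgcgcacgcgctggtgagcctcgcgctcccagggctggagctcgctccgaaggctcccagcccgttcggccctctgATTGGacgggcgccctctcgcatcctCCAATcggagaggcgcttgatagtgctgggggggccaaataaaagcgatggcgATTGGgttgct
Smarca2: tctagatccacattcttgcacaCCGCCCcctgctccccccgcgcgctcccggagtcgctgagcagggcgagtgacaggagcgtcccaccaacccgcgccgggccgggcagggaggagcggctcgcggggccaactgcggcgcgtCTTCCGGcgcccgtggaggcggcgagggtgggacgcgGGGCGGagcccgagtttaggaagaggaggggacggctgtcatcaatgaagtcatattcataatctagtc
These windows lie at chr16:4213405-4213654 (Crebbp, minus strand), chr15:81585964-81586213 (Ep300, plus), chr9:44881290-44881539 (Kmt2a, minus), chr5:25498784-25499033 (Kmt2c, minus), chr11:101226464-101226713 (Ezh1, minus), chr6:47595031-47595280 (Ezh2, minus) and chr19:26604910-26605159 (Smarca2, plus).

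GC boxes and CpG were more frequent in the promoters of these genes than in those of all protein-coding genes. The table held 36 of the 49 genes with 50 starts, and starts of 1 gene that lie close share sequence. GGGCGG occurred in 31 of the 50 windows (62.0%), against 42.6% of 21263 windows of protein-coding genes. CpG dinucleotides had a median of 22 per window against 10. CCGGAAG occurred in 8.0% against 8.98%, CCAAT in 22.0% against 35.4% and CACGTG in 4.0% against 6.63%. Of the 50 starts, 32 (64.0%) lay in a region, against 40.0% of the starts of all protein-coding genes. Starts in regions called in all 6 lists and starts in regions missing from some list had medians of 27 and 23 CpG, and GGGCGG occurred in 70.6% and 73.3% of them. A match is a description of the letters and not a binding site.

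The next comparison asked how regions of these genes were called along the withdrawal series, at gene boundaries and elsewhere. A boundary region had its centre no more than 1000 bases from the outer start or end of a protein-coding gene, and 30 of the 73 regions were of this kind, 27 of them over an annotated transcript start. The other 43 comprised 28 that overlapped the gene they were assigned to and 15 outside it. Boundary regions were called in 23 of 30 cases in continuous E2, then in 24, 24, 26 and 27 after 24, 40, 56 and 72 h, and in 24 at 120 h. Regions elsewhere were called in 33 of 43 cases in continuous E2, then in 32, 24, 20 and 22, and in 18 at 120 h. Calls at gene boundaries were thus about as many at both ends of the series, while those elsewhere were fewer at 120 h.

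Over all regions of the series, 87.0%, 84.3%, 81.7%, 79.7%, 82.2% and 68.6% of boundary regions were called in these lists. The member shares were 76.7%, 80.0%, 80.0%, 86.7%, 90.0% and 80.0%. Elsewhere the shares over all regions were 77.7%, 59.6%, 43.9%, 34.1%, 38.8% and 32.4%, and those of members were 76.7%, 74.4%, 55.8%, 46.5%, 51.2% and 41.9%. Here and below, all regions elsewhere include those with no protein-coding gene within 50000 bases, which could not be assigned to a member. Of the 16028 regions, 14806 had such a gene. The member intervals were wide, for example 59.8 to 85.1% at 24 h elsewhere, and that one lay just above the share of all regions. At gene boundaries all 6 member intervals included the share of all regions.

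**Figure D1:**
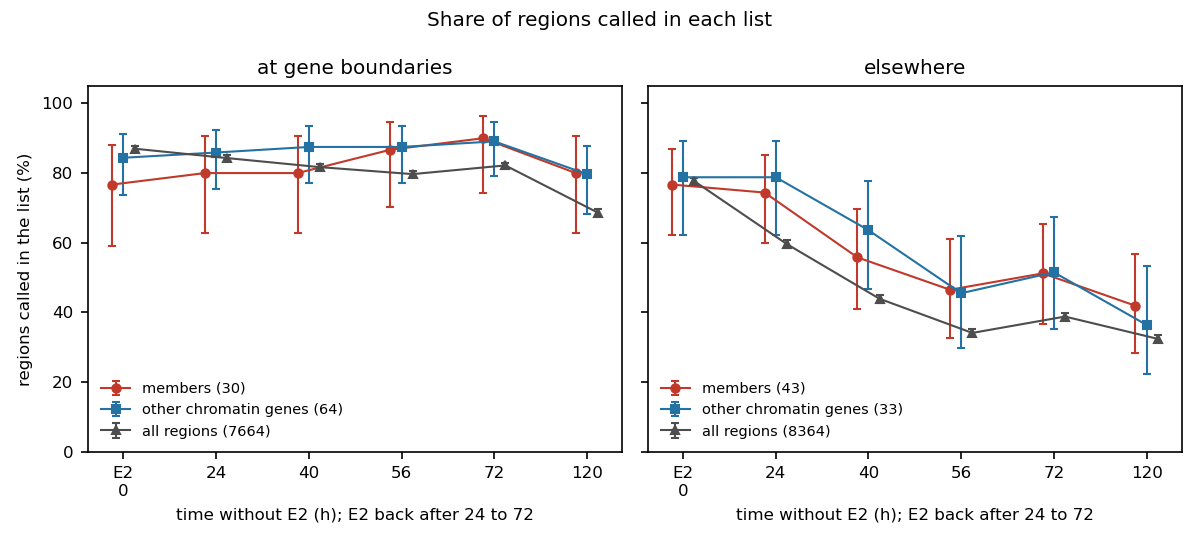
Percentage of regions called (vertical axis) in each list, ordered by hours without E2 (horizontal axis), at gene boundaries and elsewhere. Points are the members, the other chromatin genes and all regions, with the number of regions in brackets, and bars are 95% Wilson intervals; member shares elsewhere went from 76.7% in continuous E2 to 41.9% at 120 h, and at boundaries from 76.7% to 80.0%.

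Between the end points, regions of continuous E2 that were not called at 120 h are termed lost, those called at 120 h but not in E2 gained, and those called in both kept. At gene boundaries 4 of 23 E2 regions were lost (17.4%, 6.98 to 37.1), against 28.9% of all boundary regions. Elsewhere 21 of 33 were lost (63.6%, 46.6 to 77.8), against 72.9% of all such regions. Both intervals included the share of all regions, so no difference from the series was seen in how often regions were lost. Over both places the lost share was 44.6%, against 50.6%. Gained regions numbered 11 of 73 (15.1%, 8.63 to 25.0), against 9.15% over the series. Of them, 5 lay at boundaries (16.7%, 7.34 to 33.6, against 6.73%) and 6 elsewhere (14.0%, 6.56 to 27.3, against 11.4%). The interval at boundaries lay just above the share of all regions. Taken over the regions called at 120 h, gained ones were 20.8% at boundaries (9.24 to 40.5), against 9.81%, and 33.3% elsewhere (16.3 to 56.3), against 35.1%. Without peaks narrower than 512 bases, the gained count was 5, with 28 boundary and 34 other member regions left. With lists cut by width to 7987 peaks each, it was 14, with 30 and 34 left. Shares over the series under these settings are not given. Of the 46 genes, 18 had a lost region (39.1%, against 43.4% of all genes with a region). No region assigned to the gene was called in continuous E2 at 9 genes (19.6%, against 11.2%) and at 120 h at 10 (21.7%, against 35.4%). Nearly as many genes thus lacked an assigned call at either end. Brd2 was among the 9 and Kmt2d among the 10, though a region counted for a neighbour overlapped each and was called in that list.

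**Figure D2:**
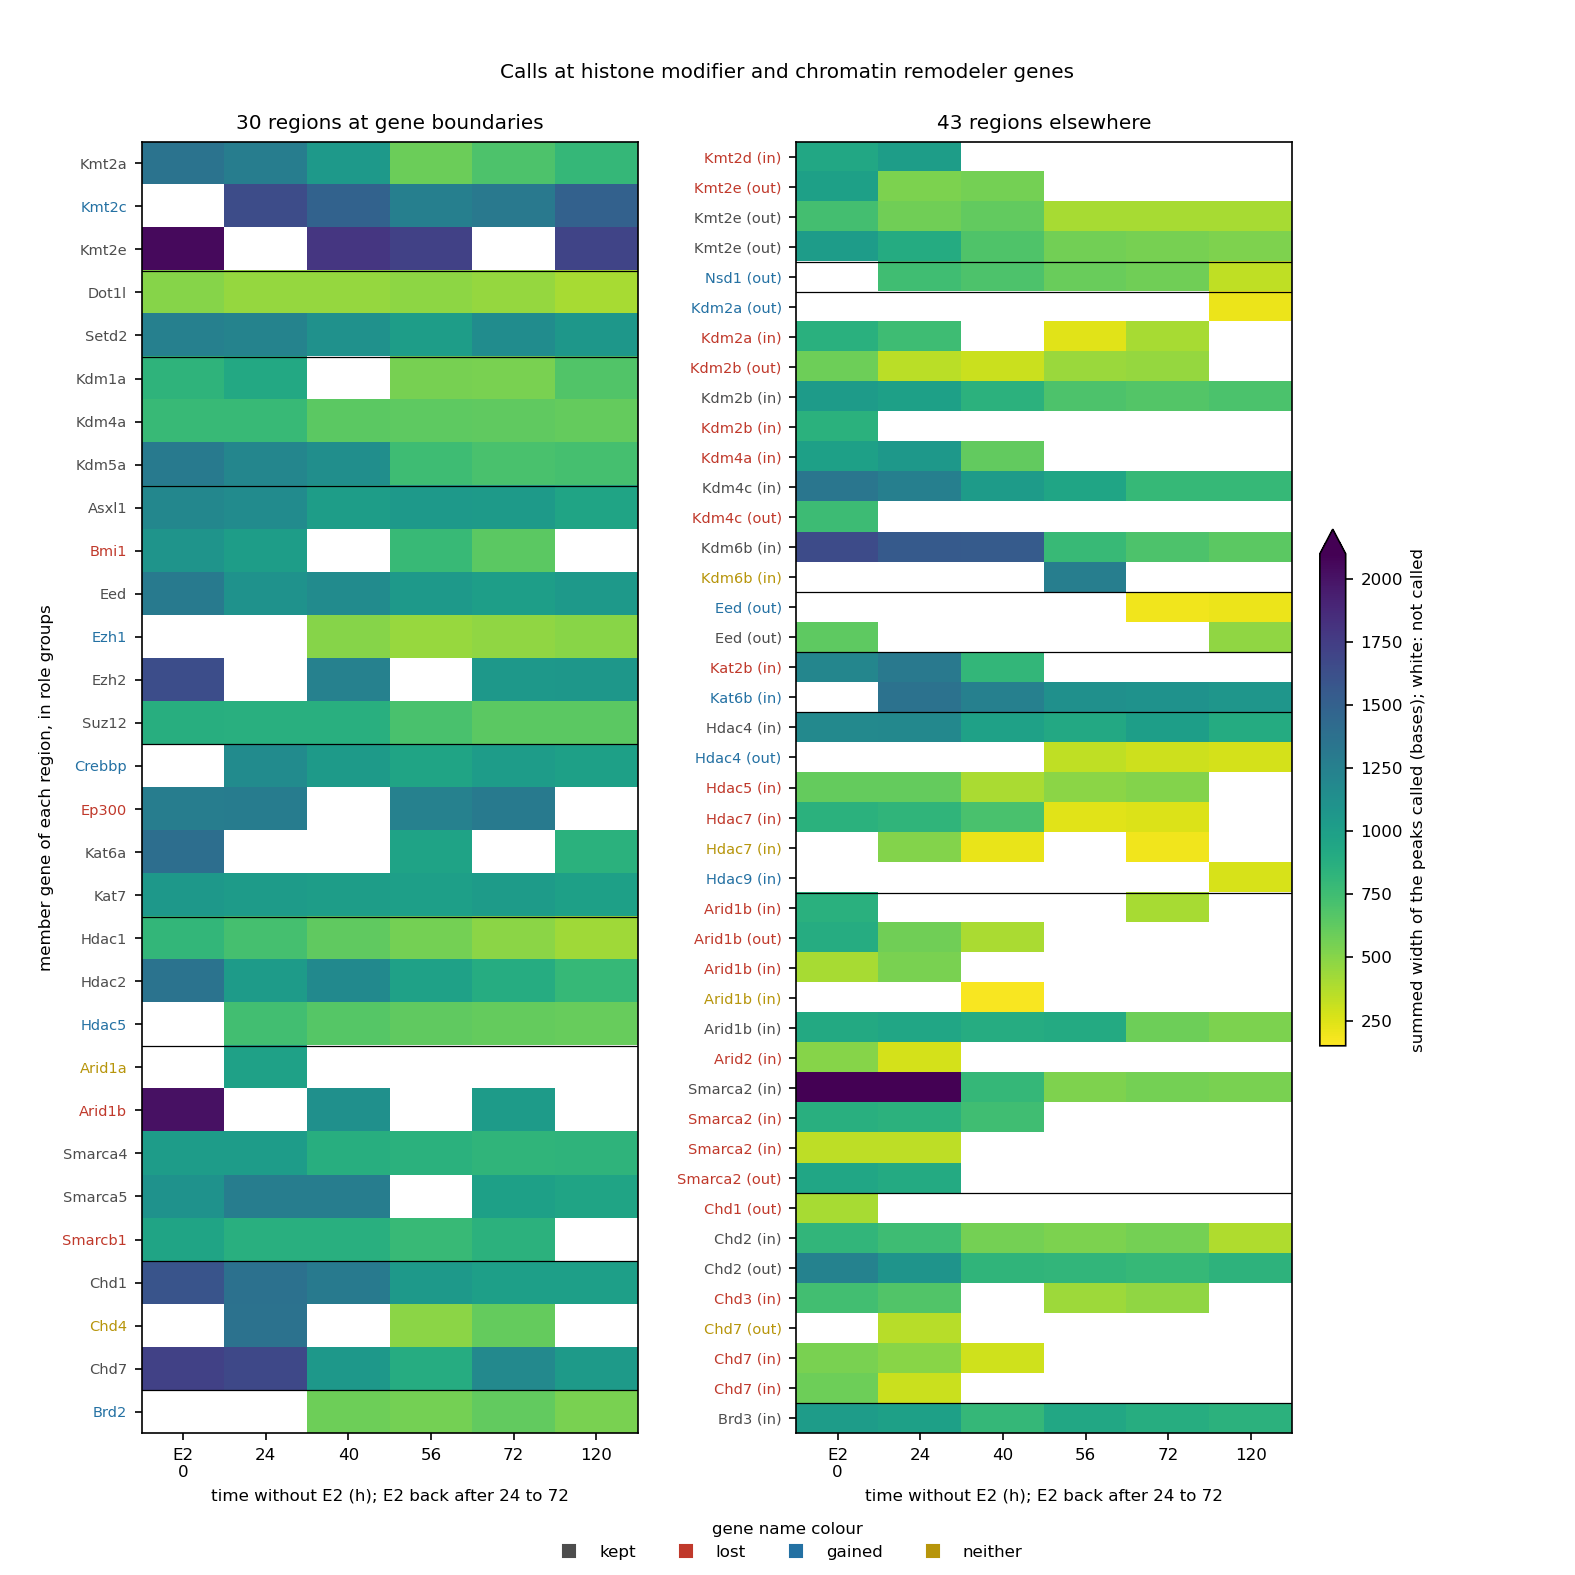
Each row is a region, named by its member gene and grouped by role, each column a list by hours without E2, and colour the summed peak width in bases, with white for no call and widths beyond the scale in its darkest colour. White cells are scattered over the lists in the left panel; in the right panel, (in) and (out) mark regions inside and outside the gene, and 21 of the 43 have the red names of lost regions.

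The MLL family methyltransferases, which methylate lysine on the tail of histone H3, had 7 regions at 4 genes. The Kmt2a promoter region (chromosome 9, 44880905 to 44882290) was called in every list, with widths of 1355, 1273, 1045, 585, 698 and 801 bases in continuous E2 and at 24, 40, 56, 72 and 120 h. The Kmt2c promoter region (chromosome 5, 25498402 to 25500067) was absent from continuous E2 and 1650, 1484, 1262, 1315 and 1493 bases wide in the later lists. Its only missing call was thus in the first list.

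Kmt2d, whose product marks enhancers, had 1 region assigned to it, 2062 bases inside the gene from its boundary. It was 932 bases wide in continuous E2 and 1014 at 24 h, and was not called later. Kmt2e, an MLL family member with little known methyltransferase activity, had 4 regions. Those 46076 and 22698 bases outside the gene were called in every list, and that at 14546 bases was called up to 40 h only. The Kmt2e boundary region was called at 2054, 1790, 1723 and 1703 bases in continuous E2 and at 40, 56 and 120 h, and not at 24 or 72 h. A region this wide was therefore present on both sides of each missing call.

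Among the other methyltransferases, Setd2, which methylates histone H3 behind the elongating polymerase, had a promoter region called in every list, 1253 to 1011 bases wide. Dot1l, which acts on the globular part of histone H3, also had one in every list, 405 to 508 bases wide and the narrowest of the 14 such boundary regions. Nsd1 had 1 region, 19440 bases outside the gene. It was absent from continuous E2 and then 751, 693, 598, 570 and 334 bases wide.

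Histone demethylases had 13 regions at 7 of 8 genes, with 6 kept, 5 lost, 1 gained and 1 called at neither end point. No region was assigned to Kdm5b. Boundary regions of Kdm4a and Kdm5a were called in every list, and that of Kdm1a, the flavin-dependent demethylase LSD1, in all but 40 h. Kdm1a widths were 830, 921, 552, 542 and 681 bases in the lists that held it. The Kdm5a region spans the boundary that this gene shares with Ccdc77.

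The 5 lost demethylase regions all lay away from boundaries, as did 10 of the 13 demethylase regions. Over the series, 72.9% of E2 regions elsewhere were lost, against 28.9% at boundaries. In Kdm4a a region 7453 bases from the gene boundary was 995, 1063 and 616 bases wide up to 40 h and then absent. Regions of Kdm2b, 37354 bases inside the gene, and of Kdm4c, 11179 bases outside it, were called in continuous E2 alone, at 857 and 761 bases. A second lost region of Kdm2b, 5358 bases outside the gene, was absent at 120 h alone. Kdm2a had 1 region called in continuous E2 and at 24, 56 and 72 h, and a gained one of 205 bases at 120 h alone.

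Kdm6b, which removes methyl groups placed by Polycomb, had a region 1926 bases inside the gene boundary that was called in every list (chromosome 11, 69417603 to 69419278). Its widths were 1656, 1549, 1540, 783, 697 and 639 bases. The step lay between 40 and 56 h, where the lower edge of the peak moved from 69417617 to 69418476 and the upper edge from 69419156 to 69419258. At 120 h it was 0.386 times as wide as in continuous E2, and 5.48% of all regions of that kind had a lower ratio. A second Kdm6b region, of 1267 bases, was called at 56 h alone.

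All 6 genes of Polycomb complexes and their partner had a boundary region. Those of Suz12 and Eed, core subunits of Polycomb repressive complex 2, and of Asxl1, a partner of the deubiquitinase Bap1, were called in every list. The catalytic subunits differed. The Ezh2 promoter region (chromosome 6, 47594214 to 47595855) was 1642 bases wide in continuous E2 and 1246, 1059 and 1065 bases at 40, 72 and 120 h, with no call at 24 or 56 h. The Ezh1 promoter region (chromosome 11, 101226076 to 101226646) had no call in continuous E2 or at 24 h and was 502, 453, 472 and 494 bases wide from 40 h on.

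The Ezh1 region thus appeared once along the series and remained called, while calls of Ezh2 came and went. Bmi1, a subunit of Polycomb repressive complex 1 needed for stem cell self-renewal, had a promoter region of 1088, 1018, 786 and 642 bases in continuous E2 and at 24, 56 and 72 h. It was missing at 40 and 120 h and so counted as lost. Eed also had 2 regions outside the gene, of which that at 38814 bases was called at 72 and 120 h, 191 and 205 bases wide. The other, 42429 bases away, was called at both end points and in no add-back list.

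Acetyltransferases had 6 regions at 6 of 7 genes, and none was assigned to Kat2a. Only the promoter region of Kat7 was called in every list, at 994 to 1063 bases. The paralogs Crebbp and Ep300, coactivators that acetylate enhancer histones, each had 1 region, over the promoter shown above. That of Crebbp (chromosome 16, 4213298 to 4214458) was absent from continuous E2 and 1161, 1036, 962, 1020 and 995 bases wide afterwards. That of Ep300 (chromosome 15, 81585064 to 81586380) was 1274, 1280, 1246 and 1303 bases wide in continuous E2 and at 24, 56 and 72 h, and missing at 40 and 120 h. Neither gene was called in fewer than 4 lists, and the width of Ep300 where called hardly varied.

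Kat6a and Kat6b, catalytic subunits of the MOZ and MORF complexes, also differed. The Kat6a boundary region was called in continuous E2 and at 56 and 120 h, at 1398, 966 and 858 bases. The Kat6b region, 1450 bases inside the gene boundary, was absent from continuous E2 and 1366 to 1079 bases wide afterwards. Kat2b had 1 region, 20911 bases inside the gene, which was 1202, 1309 and 810 bases wide up to 40 h and not called from 56 h on.

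Class I deacetylases, which sit in nuclear corepressor complexes, and class IIa deacetylases, which shuttle between nucleus and cytoplasm, together had 9 regions at 6 of 7 genes. The boundary regions of Hdac1 and Hdac2 were called in every list. Hdac1 widths were 807, 724, 629, 555, 490 and 426 bases, narrower in each list than in the one before. A region over the boundary of Hdac3 and Rell2 was also called in every list but was counted for Rell2, whose boundary lay nearer its centre.

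Of the class IIa genes, Hdac5 had a promoter region absent from continuous E2 and 738, 666, 627, 611 and 603 bases wide afterwards, and a region inside the gene that was lost at 120 h alone. Hdac4 had a region over an internal transcript start in every list, 900 to 1193 bases wide, and a gained region 29787 bases outside the gene that was called from 56 h on. Hdac7 had 2 regions inside the gene and none over a start in the promoter table. The wider one was 854, 827, 708, 234 and 256 bases up to 72 h and absent at 120 h. Hdac9, the longest member gene with 870.0 kb, had a single region of 269 bases, called at 120 h alone.

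SWI/SNF and ISWI genes held the most regions, 15 at 7 genes, and the most lost ones, 9. Calls numbered 13 in continuous E2, then 12, 9, 4 and 7, and 4 at 120 h. CHD genes had 8 calls in continuous E2 and 4 at 120 h, demethylase genes 11 and 7, deacetylase genes 5 and 6, and Polycomb genes 6 and 7. Over the whole series, 13165 regions were called in continuous E2 and 7969 at 120 h. Of all E2 regions, 50.6% were lost. The mix of places differed: 10 of the 15 SWI/SNF and ISWI regions were counted elsewhere, and 2 of the 8 Polycomb ones. Of the 9 SWI/SNF and ISWI regions called elsewhere in continuous E2, 7 were lost, against the 72.9% of all such regions. At boundaries 2 were lost and 2 kept, against 28.9% lost over all boundary regions. These counts come from few genes, with 4 of the 9 lost regions at Arid1b and 3 at Smarca2, and the difference between roles was not tested.

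At Smarca2, a region (chromosome 19, 26604651 to 26607755) spanned the gene's outer start at 26605073 and an annotated transcript start. Its centre lay 1130 bases inside the gene, so it was counted elsewhere. It was a single peak of 3049 bases in continuous E2. At 24 h it was covered by 2 peaks, of 869 bases over the start and of 1537 bases downstream (26606166 to 26607702). From 40 h on only the peak over the start was called, at 802, 526, 557 and 540 bases. The drop in width thus comprised the missing downstream part and a narrower peak over the start. Its width ratio of 0.177 at 120 h had 0.161% of all comparable regions below it. The other 3 Smarca2 regions, 41233 and 30248 bases inside the gene and 44219 bases outside it, were lost by 40, 56 and 40 h. Chromosome 19 is among those with repeated rows in the deposited lists, and each Smarca2 peak was merged from 3 to 8 rows.

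Arid1b, a DNA-binding subunit of the BAF complex, had 6 regions, the most of any member. Its promoter region was called at 2010, 1119 and 1029 bases in continuous E2 and at 40 and 72 h, and was missing at 24, 56 and 120 h. A region 157543 bases inside the gene was called in every list, at 916, 947, 894, 908, 580 and 535 bases. Regions 48120 bases outside and 108836 bases inside the gene ended after 40 and 24 h. A region 19795 bases inside was called in continuous E2 and at 72 h, at 863 and 408 bases, and one of 172 bases at 40 h alone. Its paralog Arid1a had 1 region, over the promoter, called at 24 h alone with 981 bases.

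Smarca4, the other SWI/SNF ATPase, had a promoter region in every list, 1023 to 825 bases wide. The core subunit gene Smarcb1 had one of 963, 868, 870, 788 and 848 bases up to 72 h that was absent at 120 h alone. Smarca5, the ISWI ATPase, lacked its call at 56 h alone. Arid2 had a region inside the gene at 508 and 274 bases in continuous E2 and at 24 h. A wider region over the edge of Arid2, 2754 bases in continuous E2, was called up to 72 h but counted for Gm38469.

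**Figure D3:**
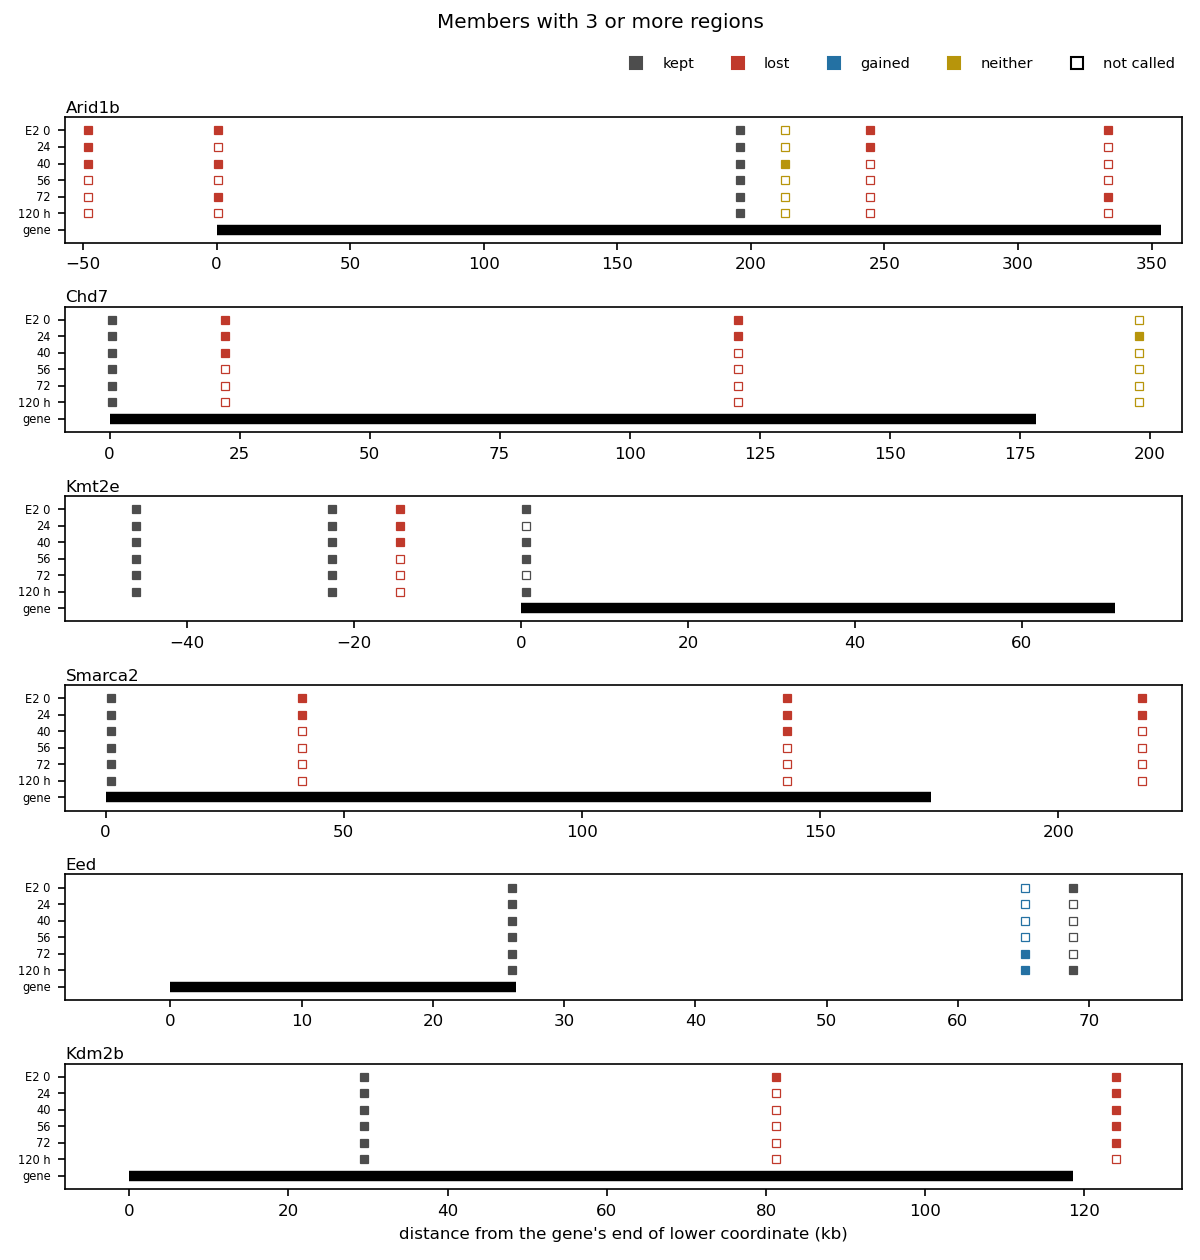
Positions of the regions of the 6 members with 3 or more regions, as distance in kb from the gene's end of lower coordinate; the black bar is the gene, each column of squares is a region, and filled squares are lists that called it, from continuous E2 at the top to 120 h at the bottom. At Smarca2 the 3 lost regions stop at 24 or 40 h while the region over the start stays, and at Kmt2e the regions 46076 and 22698 bases outside the gene are called in every list while the boundary region is not.

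CHD remodelers had 10 regions at 5 genes, with 4 kept, 4 lost and 2 called at neither end point. Chd7, which binds enhancers, had a boundary region in every list (1723, 1675, 1057, 896, 1181 and 1035 bases). Its regions 22188 and 57208 bases inside the gene were called up to 40 h and 24 h, and one outside the gene at 24 h alone. Chd1 had a boundary region in every list and a region 47549 bases outside the gene in continuous E2 alone. Both Chd2 regions were called in every list, and the one outside the gene lies over the start of the noncoding RNA gene Chaserr.

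The nucleosome remodeling and deacetylase complex ATPases Chd3 and Chd4 had irregular calls. The Chd4 promoter region was called at 24, 56 and 72 h, at 1368, 491 and 611 bases, and at neither end point. The Chd3 region, inside the gene, was called in continuous E2 and at 24, 56 and 72 h. Among the BET genes, whose products bind acetylated histones, Brd3 had a region over an internal start in every list, 802 to 1024 bases wide. Brd2 had one at its boundary with 579, 555, 622 and 539 bases from 40 h on. A second Brd2 start, in a region at the edge of H2-DMa and counted for that gene, was called in every list.

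Regions called in all 6 lists numbered 14 of 30 at boundaries (46.7%, 30.2 to 63.9), against 52.5% over the series, and 11 of 43 elsewhere (25.6%, 14.9 to 40.2), against 14.8%. Of the 11 elsewhere, 6 held an annotated transcript start, those at Brd3, Chd2, Hdac4, Kdm2b, Kdm4c and Smarca2. No other region elsewhere held one. Among the 37 regions without such a start, 5 were called in all lists (13.5%, 5.91 to 28.0), against 11.0% of all regions of that kind. In the same 37, 21 of 27 E2 regions were lost (77.8%, 59.2 to 89.4), against 77.9%. This split was chosen after the data were seen, and the promoter table does not hold every start. A region without a start can still lie close to one. The Kmt2d region began at 98871508, near a start at 98871205, and the Kat6b region at 21499981, near one at 21499785.

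Of the 21 lost regions elsewhere, 17 were called at 24 h, 9 at 40 h, 5 at 56 h and 6 at 72 h. Over all lost regions of that kind the shares were 58.7%, 34.7%, 16.9% and 16.8%, and those of members 81.0% (60.0 to 92.3), 42.9%, 23.8% and 28.6%. Of the 21, 3 were called in continuous E2 alone (14.3%, 4.98 to 34.6, against 35.4% over the series). Another 6 ended after 24 h (28.6%, 13.8 to 50, against 24.8%) and 6 after 40 h (28.6%, 13.8 to 50, against 14.9%). The 4 lost boundary regions, of Arid1b, Bmi1, Ep300 and Smarcb1, were all called at 72 h (interval 51.0 to 100%), against 51.7% of all lost boundary regions.

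Of the 11 gained regions, 5 were called in every list but continuous E2, those of Kmt2c, Crebbp, Hdac5, Kat6b and Nsd1, with widths of 738 to 1650 bases at 24 h. Such regions were 5 of 73 (6.85%, 2.96 to 15.1), against 1.99% over the series. At boundaries they were 3 of 30 (10.0%, 3.46 to 25.6, against 2.78%) and elsewhere 2 of 43 (4.65%, 1.28 to 15.5, against 1.27%). This count was singled out after its values were seen. Their median width at 24 h was 1161 bases, against 770 for all 319 regions of this pattern and 1033 for member regions called in all lists. The gained regions of Eed, Hdac4, Hdac9 and Kdm2a were 205 to 272 bases wide at 120 h, and the boundary regions of Ezh1 and Brd2, called from 40 h on, 494 and 539 bases. Regions missing from 120 h alone were 4 of 73 (5.48%, against 6.59%), 1 at a boundary (3.33%, against 8.16%) and 3 elsewhere (6.98%, against 5.16%).

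Some calls changed more than once along the series. At boundaries 10 of 30 member regions changed at least 2 times (33.3%, 19.2 to 51.2), an interval that includes the 23.3% of all boundary regions, and 8 of 43 elsewhere (18.6%), against 25.0%. The 10 boundary regions were those of Arid1a, Arid1b, Bmi1, Chd4, Ep300, Ezh2, Kat6a, Kdm1a, Kmt2e and Smarca5. Where called, they had a median width of 1042 bases, against 976 for the member boundary regions called in all 6 lists. Over all boundary regions of the series the order was the other way, with 707.5 and 729 bases. The lists that enter each median differ between regions. Of lost and gained member regions, 30 of 36 switched once (83.3%, 68.1 to 92.1), against 84.7% over the series, with 6 of 9 at boundaries (66.7%, against 76.0%) and 24 of 27 elsewhere (88.9%, against 88.5%). What made such calls come and go was not tested.

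Widths narrowed in all 25 member regions called in every list. At boundaries the 14 medians were 1226, 1068.5, 1030.5, 875.5, 860.5 and 814.5 bases along the series, against 962, 865, 766, 658, 657 and 627 for the 4025 such regions of the series. The ratio of width at 120 h to continuous E2 had a median of 0.754 against 0.668, and 98.6% of the 4025 regions narrowed. Kat7 narrowed least, with a ratio of 0.935, and Hdac1 most, with 0.528. Elsewhere the median ratio was 0.584 against 0.679, from 0.177 at Smarca2 to 0.829 at Brd3. Narrowing was therefore shared with nearly all regions, and its part in missing calls was not tested.

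**Figure D4:**
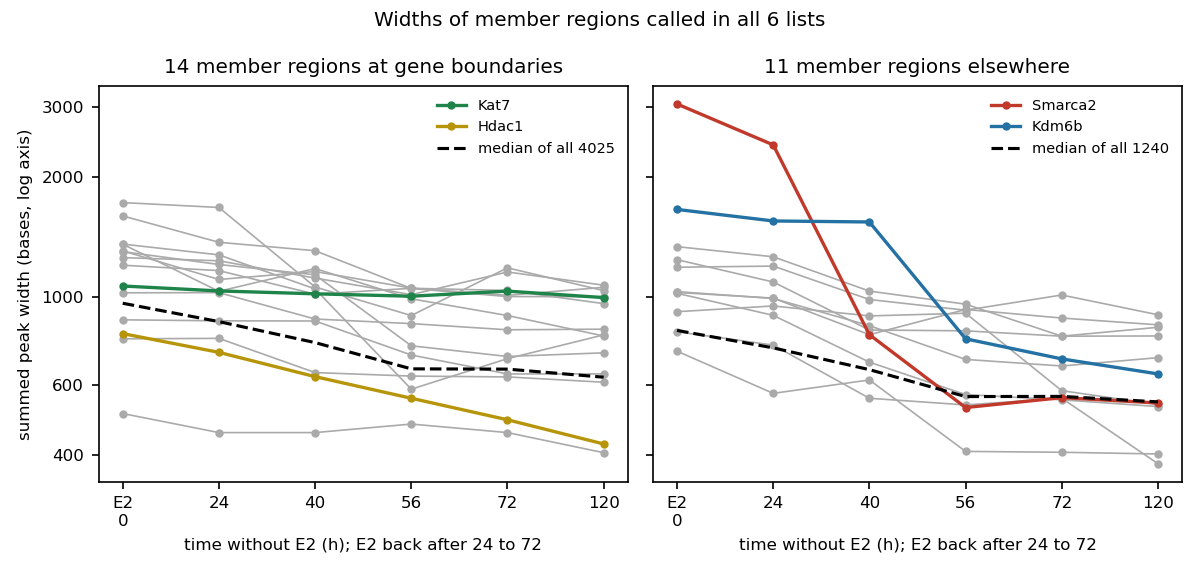
Summed peak width in bases (log axis) in each list for the 14 boundary and 11 other member regions called in all 6 lists, with 4 genes in colour, the other members in grey and the median of all such regions dashed. Kat7 stays between 994 and 1063 bases, Hdac1 goes from 807 to 426, Smarca2 from 3049 to 540, and Kdm6b from 1656 to 639.

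A second list of 79 chromatin genes that are no members, such as further subunits and paralogs, had 97 regions at 71 genes. At boundaries 9 of 54 E2 regions were lost (16.7%), and elsewhere 16 of 26 (61.5%), close to the 17.4% and 63.6% of the members. Regions called in all lists were 40 of 64 at boundaries (62.5%, 50.3 to 73.3), against 46.7% of members and 52.5% of all regions. Elsewhere they were 10 of 33 (30.3%, 17.4 to 47.3), against 25.6% and 14.8%. Regions missing from continuous E2 alone numbered 1 of 64 at boundaries (1.56%), where members had 3 of 30 and all regions 2.78%. Over all places they were 1 of 97 (1.03%), where members had 5 of 73 and all regions 1.99%. The differences between both lists were not tested.

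The assignment of regions bears on 5 further ones that overlap a member and were counted for a neighbour. Besides those at Hdac3 and Brd2, called in every list, they lay at the boundary of Arid2 and Gm38469 (absent at 120 h alone, 2754 bases wide in continuous E2), at that of Kmt2d and Prkag1 (absent at 24 h alone) and in Kdm2a at 9430078G10Rik (called from 40 h on). Members had a median of 1 region per gene, as all genes with a region did, and 13.0% of them had 3 or more, against 9.01%. The median length of the 46 genes was 66.8 kb, against 25.8 kb.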

How the data were processed

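Peak lists of 12 ATAC-seq libraries in 6 groups were used, 1 deposited list per group, which the labels name for both libraries. Each holds peak positions in bases and no other value. The submitters' processing notes name BWA, MACS2 2.0 and STAR 2.5 and the build mm9, with no role or order; cutoffs and the way libraries were combined are not given in the sources used here. Positions were checked against RefSeq genes of GRCm38: 50.6% to 68.0% of peaks lay near a gene boundary, against 6.52% to 7.19% after a shift of 100000 bases, so GRCm38 was used.

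Exact duplicates and intervals over 10000 bases were left out, overlapping rows merged, and the 6 lists merged into regions (overlap of 1 base). A region went to the protein-coding gene it overlaps, by the nearer boundary where several overlap, or else to the nearest within 50000 bases, measured from its centre; boundary regions had their centre within 1000 bases of a gene edge. Peak widths are given as description only, since the lists hold no score, and were not tested as a measure of strength. Shares have 95% Wilson intervals; no test between groups was possible. The scripts were tested on simulated lists with known calls.

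Members and gene lists were chosen with earlier results of these data known. Region values were named for members with 3 or more regions, with a boundary region missing from a list, or with a gained region; values of the remaining members were chosen after they were seen. The 10 alternatives were fixed first, and 1 was added later. Scripts ran under Python 3.11.15 with pandas 2.3.3 and numpy 2.4.6, and figures were drawn with matplotlib 3.10.9.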

Additional observations from a re-analysis of the deposited data

How the results depend on the processing

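No paired analysis was possible because the deposited lists hold no value of a single library; nor can a library be omitted. Under the 10 other settings fixed first, the lost share of E2 regions ranged from 13.6% to 22.7% at boundaries and from 54.5% to 72.7% elsewhere, and stayed higher elsewhere. The share called in all lists ranged from 42.9% to 50% and from 18.6% to 29.4%, the share switching once from 80.0% to 89.5%, and the width ratio from 0.626 to 0.682. Gained regions numbered 11, and 5 without peaks under 512 bases, since that setting drops those of Ezh1, Nsd1, Eed, Hdac4, Hdac9 and Kdm2a, all narrower than that at 120 h; lists of equal length gave 14. Counting regions with an annotated start as boundary regions, added after seeing the data, left 13.5% of regions elsewhere called in all lists. Lost counts of single members changed in 28 of 538 comparisons, 8 each for lists of equal length and without narrow peaks. Leaving out chromosomes 18 and 19 removes Smarca2 and Kdm2a. Lists of 1 group each, with no reads, limit every comparison.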

Other observations

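Regions just beyond the assignment distance of 50000 bases were looked up for the members. Chd2 had 3, at 53591, 65311 and 76816 bases, of which the nearest and the farthest were called in every list and the middle one was absent at 120 h alone. Chd7 had 1 at 58905 bases, called in continuous E2 alone, and Eed 1 at 61319 bases, called in continuous E2 and at 24 h. Arid1b had 1 at 85966 bases, called in every list. The farthest region inside the distance was that of Arid1b at 48120 bases, called up to 40 h.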
